A study of Mus musculus with 16 samples.

Results

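The 8 genes described here stood highest in untreated Th17 cells with a PDH knockout, and lower once those cells had been cultured with acetate: Aqp4, Fscn1, Tspoap1, Kynu, Dagla, Plcd1, Prlr and Dnah7a. They are 8 of the 15571 genes in the deposited count table. They were picked from these same values, for the highest level in untreated knockout cells and a fall with acetate, with no threshold, so that pattern is given as a description and was not tested. All 8 passed the filter on low counts, and all 8 also passed it when the untreated knockout libraries were left out.

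Th17 cells are helper T cells that secrete IL-17. PDH, the pyruvate dehydrogenase complex, turns pyruvate into acetyl-CoA inside mitochondria. Acetate can be activated to acetyl-CoA by separate enzymes, so added acetate is an alternative source of that metabolite. The 8 genes do not form a pathway. They encode a water channel, a hormone receptor, lipid-signalling enzymes, an enzyme of tryptophan breakdown, an actin-bundling protein, a scaffold protein and a motor protein of cilia.

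RNA was sequenced from mouse CD4+ T cells grown under Th17 conditions for 3 days with anti-CD3, anti-CD28, IL-6, TGFβ and anti-IFNγ. Naive cells came from PDH fl/fl mice, called WT in the labels, or from PDH fl/fl mice carrying CD4 Cre, called KO. All groups thus carried loxP-flanked PDH alleles, and Cre was driven in T cells in the KO groups. Each genotype was left untreated or cultured in 10 mM sodium acetate, which gave 4 groups of 4 libraries: WT untreated, WT acetate, KO untreated and KO acetate. The sample titles write PHD where the protocols write PDH. Ages were not given in the sources used here. GEO's labels leave unsaid whether replicates are separate mice or cultures, so p-values measure only the spread between these libraries, which may be technical. Sodium alone and Cre alone had no control group, so sodium and acetate, and Cre and the knockout, cannot be told apart.

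Library totals lay between 24.57 and 33.72 M estimated counts. The labels do not name the deleted PDH gene. Whole-gene levels of Pdha1, which encodes a PDH subunit, ranged from 234 to 263 CPM (a gene's counts per M counts of the library) in WT untreated and from 210 to 235 CPM in KO untreated. With acetate, Pdha1 ranged from 250 to 273 CPM in WT cells and from 232 to 262 CPM in KO cells, which overlap. Such whole-gene levels do not test the loss of single exons. A gene without a name in the reference took over 3% of the counts in replicate 1 of WT untreated, replicates 1 and 2 of KO untreated and replicate 2 of KO acetate. Results were repeated without these high-share libraries. Summed T cell markers ranged from 1708 to 1786 CPM in WT untreated, 1442 to 1560 in KO untreated, 1549 to 1652 in WT acetate and 1431 to 1537 CPM in KO acetate, and 4 of the 6 markers fell and 0 rose in KO untreated against WT untreated. Summed Th17 markers (7 of 7 in the table) ranged from 715 to 1121 CPM, 657 to 933, 1264 to 2101 and 1619 to 2850 CPM in the same order. Of the 7, 1 rose and 2 fell in KO untreated against WT untreated, and 6 rose and 0 fell in KO acetate against KO untreated, among them Il17a (137 CPM untreated, 868 with acetate) and the receptor gene Il23r (7.82 and 24.4 CPM). The part of these shifts in the levels of the 8 genes was not tested. CPM does not correct for gene length, so levels are compared between libraries and not between genes.

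Since the 8 genes were chosen for 1 shared peak, the 250 bases upstream of their annotated starts are shown, so that their letters can be compared, for those with an entry in the RefSeq promoter table (GRCm38.p6). Fscn1, Plcd1, Prlr and Dnah7a matched by symbol, and Aqp4, Tspoap1, Kynu and Dagla did not. The windows are chr5:142960105-142960354 on the plus strand for Fscn1, chr9:119093503-119093752 on the minus strand for Plcd1, chr15:10176988-10177237 on the plus strand for Prlr and chr1:53706785-53707034 on the minus strand for Dnah7a. For Plcd1 and Prlr the outermost of 2 and of 3 listed starts was taken. Sequences run 5′ to 3′ toward the start, and capitals mark matches to the motifs named after them.
Fscn1: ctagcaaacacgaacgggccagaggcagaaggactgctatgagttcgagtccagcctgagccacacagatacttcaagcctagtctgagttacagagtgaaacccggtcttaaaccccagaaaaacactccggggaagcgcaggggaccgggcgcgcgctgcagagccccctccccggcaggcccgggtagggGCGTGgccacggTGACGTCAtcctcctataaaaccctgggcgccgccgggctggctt
Plcd1: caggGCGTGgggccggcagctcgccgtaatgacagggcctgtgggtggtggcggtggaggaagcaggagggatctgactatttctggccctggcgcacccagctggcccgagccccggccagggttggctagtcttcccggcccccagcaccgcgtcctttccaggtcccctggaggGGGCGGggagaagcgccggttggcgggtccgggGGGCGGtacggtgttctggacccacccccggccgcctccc
Prlr: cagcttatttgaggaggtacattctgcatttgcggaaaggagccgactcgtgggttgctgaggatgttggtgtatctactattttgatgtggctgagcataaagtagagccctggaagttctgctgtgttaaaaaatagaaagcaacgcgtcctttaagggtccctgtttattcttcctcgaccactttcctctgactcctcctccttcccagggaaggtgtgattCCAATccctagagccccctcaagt
Dnah7a: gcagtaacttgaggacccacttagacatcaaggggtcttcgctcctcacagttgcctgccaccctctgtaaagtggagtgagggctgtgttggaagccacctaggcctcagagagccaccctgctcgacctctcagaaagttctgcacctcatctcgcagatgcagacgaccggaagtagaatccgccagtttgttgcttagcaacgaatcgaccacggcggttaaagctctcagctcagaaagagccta

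The Fscn1 window held the palindromic cAMP response element TGACGTCA, which began 45 bases before the start and was present in 1.55% of all 32851 promoter windows of this length. It also held the aryl hydrocarbon receptor core GCGTG (28.2% of windows), at 57 bases before the start. In Plcd1 the same core lay 246 bases before the start, and the GC box GGGCGG (32.7% of windows) occurred at 73 and at 40 bases. The Prlr window held a CCAAT box (33.8% of windows) 24 bases before the start. The Dnah7a window matched none of the motifs searched. Both strands were searched for these and for TGANTCA (AP-1, 6.75% of windows), TGATGNAA (a C/EBP-ATF composite, 3.45%), TTCNNNGAA (STAT, 7.02%) and ACGTG (the hypoxia response core, 16.6%), which none of the 4 windows held. The matches did not overlap each other. GCGTG was present in 2 of the 4 windows, and no motif was present in more. GC content was 62.4% for Fscn1, 72.8% for Plcd1, 48.0% for Prlr and 54.4% for Dnah7a, against a median of 52.4% over all windows. A match describes letters only and does not show that a factor binds there.

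**Figure D1:**
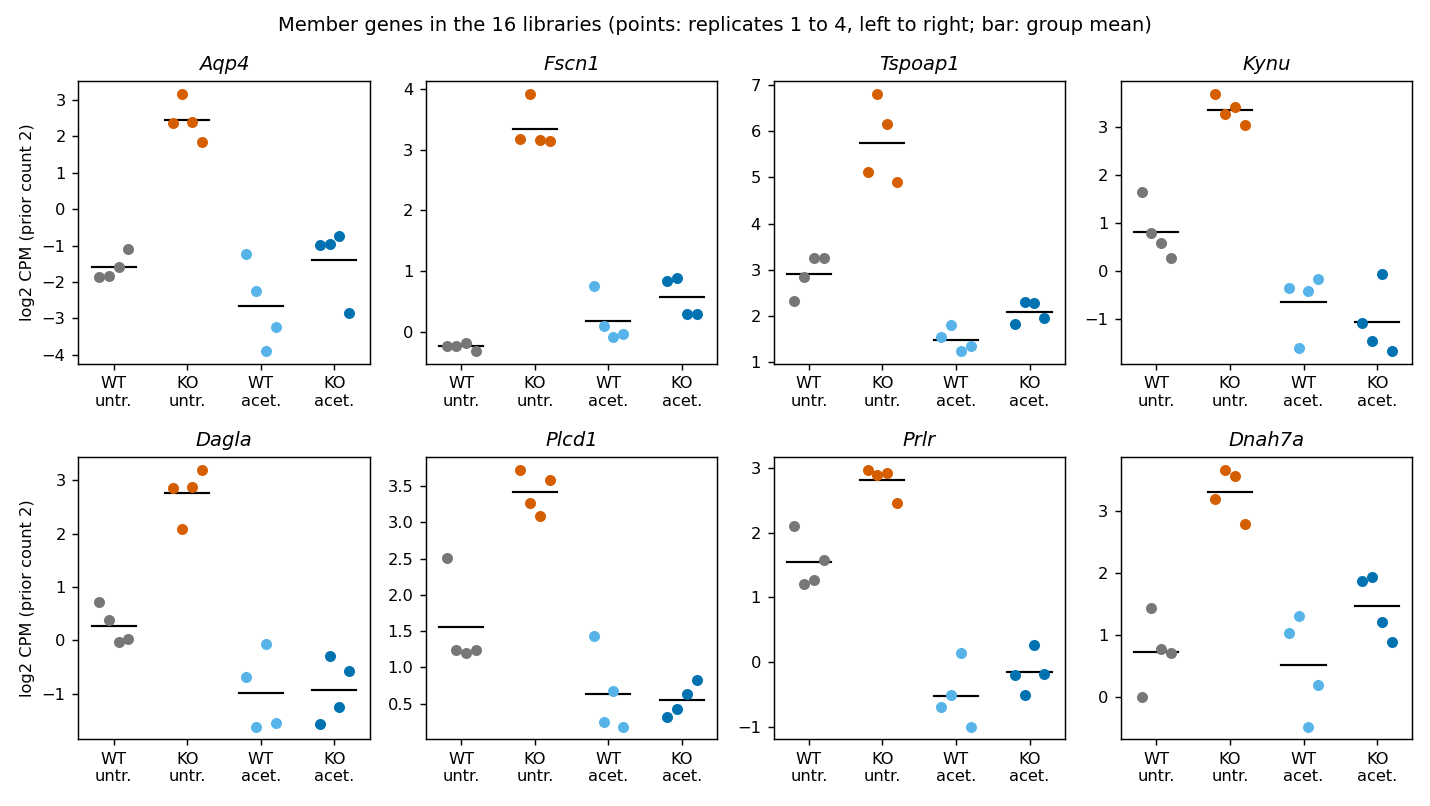
Log2 CPM (prior count 2) of the 8 genes in the 16 libraries, 1 panel a gene, with the 4 groups on the horizontal axis, points for replicates 1 to 4 from left to right and a bar for the group mean. The vertical axes differ between panels. In each panel all 4 KO untreated points lie above the other 12.

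Values were compared first within the pattern that chose the genes. In all 8, each of the 4 KO untreated libraries exceeded each of the other 12 libraries, an arrangement found in 10.2% of the 14985 genes tested. The mean of KO untreated exceeded that of WT untreated by 1.26 (Prlr) to 4.37 (Aqp4) on the log2 scale, with a median of 2.57, beside a median of 0.01 over all genes. KO acetate stood below KO untreated by log2 differences from −4.49 (Kynu) to −1.83 (Dnah7a), with a median of −3.42, beside −0.01 over all genes. Of all genes, 18.0% were called higher in KO untreated than WT untreated and 21.6% lower in KO acetate than KO untreated. These comparisons share the KO untreated libraries and were used by the choice of genes. Ranked by the gap between KO untreated and the next highest group, Aqp4 was 1st, Tspoap1 6th, Fscn1 8th, Kynu 13th, Dagla 14th, Plcd1 53rd, Dnah7a 57th and Prlr 170th of 14985. In bulk RNA, fewer cells of a type and less RNA per cell cannot be told apart.

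Aqp4 encodes aquaporin-4, a plasma membrane water channel best known from astrocytes. In the WT untreated libraries 1 to 4 it was at 0.206, 0.212, 0.264 and 0.406 CPM, and in KO untreated at 5.13, 8.91, 5.22 and 3.53 CPM. In WT acetate it was at 0.358, 0.144, 0 and 0.0396 CPM, and in KO acetate at 0.438, 0.449, 0.532 and 0.071 CPM. Outside KO untreated the gene was near the detection limit in every library. The library at 0, WT acetate 3, allows up to 0.0885 CPM (3 counts, counting error only). KO untreated stood 20.7-fold above WT untreated, and KO acetate 15.2-fold below KO untreated. The lowest KO untreated library was 6.64 times the highest of the other 12, the widest such gap among the 8 genes. An antisense locus overlaps Aqp4 in the GENCODE M21 annotation, and the strand setting of the counting is not given in the sources used here.

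Prlr encodes the prolactin receptor, a cytokine-type receptor that signals through JAK2 and STAT5. It was at 4.23, 2.24, 2.35 and 2.91 CPM in WT untreated and at 7.77, 7.35, 7.48 and 5.44 CPM in KO untreated. In WT acetate the values were 0.553, 0.635, 1.03 and 0.436 CPM, and in KO acetate 0.808, 0.635, 1.13 and 0.816 CPM. Prlr had the smallest excess in KO untreated of the 8 genes, 2.39-fold over WT untreated, and its lowest KO untreated library was 1.29 times the highest other library. Both acetate groups lay wholly below both untreated groups. For Prlr, 1.88% of the 31-base words of its GENCODE M21 transcripts occur in transcripts of other genes, most of them in the overlapping Gm21973.

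Dagla encodes diacylglycerol lipase alpha, which makes the endocannabinoid 2-arachidonoylglycerol from diacylglycerol. It was at 1.58, 1.24, 0.911 and 0.946 CPM in WT untreated and at 7.19, 4.18, 7.27 and 9.12 CPM in KO untreated. It was at 0.553, 0.260, 0.885 and 0.277 CPM in WT acetate and at 0.269, 0.748, 0.355 and 0.603 CPM in KO acetate. KO untreated 2, the highest library for Aqp4, was the lowest of its group for Dagla. The KO untreated mean stood 5.92-fold above WT untreated and KO acetate 14.0-fold below KO untreated. An antisense locus overlaps this gene too.

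Plcd1 encodes phospholipase C delta 1, a calcium-sensitive enzyme that cleaves phosphatidylinositol bisphosphate into diacylglycerol and inositol trisphosphate. Levels were 5.64, 2.30, 2.23 and 2.30 CPM in WT untreated and 13.2, 9.52, 8.45 and 11.9 CPM in KO untreated. In WT acetate they were 2.63, 1.13, 1.53 and 1.07 CPM, and in KO acetate 1.18, 1.27, 1.49 and 1.70 CPM. WT untreated 1 stood apart from the other 3 libraries of its group, which agreed closely. The KO untreated mean was 3.46-fold that of WT untreated, and KO acetate was 7.61-fold below KO untreated.

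Kynu encodes kynureninase, which turns kynurenine and 3-hydroxykynurenine into anthranilic and 3-hydroxyanthranilic acid on the route from tryptophan to NAD+. It was at 3.06, 1.67, 1.44 and 1.15 CPM in WT untreated and at 12.9, 9.65, 10.8 and 8.27 CPM in KO untreated. With acetate it was at 0.715, 0.260, 0.678 and 0.832 CPM in WT cells and at 0.404, 0.299, 0.886 and 0.248 CPM in KO cells. Kynu had the widest gap of the 8 genes between KO untreated and KO acetate, 22.4-fold. Its KO acetate libraries overlapped those of WT acetate and lay below all WT untreated libraries.

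Fscn1 encodes fascin, which bundles actin filaments in filopodia and is a known marker of mature dendritic cells. In WT untreated it was at 0.791, 0.788, 0.823 and 0.744 CPM, and in KO untreated at 8.94, 15, 8.81 and 8.71 CPM. It was at 1.63, 1.01, 0.885 and 0.911 CPM in WT acetate and at 1.72, 1.79, 1.17 and 1.17 CPM in KO acetate. The KO untreated mean was 13.1-fold that of WT untreated and KO acetate lay 7.07-fold below KO untreated. Every acetate library of either genotype stayed above every WT untreated library. Such an arrangement was found in 10.6% of all genes for WT acetate and in 14.2% for KO acetate. The summed level of dendritic cell markers (7 of 12 listed are in the table) was also highest in KO untreated, and ranged from 76.6 to 90.3 CPM in WT untreated, 226 to 273 in KO untreated, 86.1 to 101 in WT acetate and 81.9 to 117 CPM in KO acetate. Of these 7, 4 rose in KO untreated against WT untreated and 1 fell, and against KO untreated 1 rose and 2 fell in KO acetate. Without the high-share libraries 2 rose and 1 fell in KO untreated. Most of the sum was Cd74, the class II invariant chain, at 62.7 CPM in WT untreated, 202 in KO untreated and 53.8 CPM in KO acetate. Cd83, a marker of mature dendritic cells, was at 11.6, 37.3 and 28.2 CPM in the same groups. Flt3 and Zbtb46 were also among the 4 that rose in KO untreated, but these calls were lost under 11 and 8 of the 23 alternatives. Flt3, Zbtb46, Ccl22 and H2-Aa were not called in KO acetate against KO untreated. The class II gene H2-Ab1 fell from 4.60 to 2.92 CPM between WT untreated and KO untreated, a call lost under 8 of the 23 alternatives. The defining markers Itgax, Clec9a, Xcr1, Siglech and Cd209a were not in the table analysed here. The part of such cells in the level of Fscn1 was not tested.

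Tspoap1 encodes a scaffold protein that binds the mitochondrial protein TSPO and, as RIM-binding protein 1, proteins of the neuronal active zone. It was at 4.92, 7.12, 9.46 and 9.46 CPM in WT untreated and at 34.6, 112, 71.2 and 29.8 CPM in KO untreated. With acetate it was at 2.83, 3.43, 2.30 and 2.50 CPM in WT cells and 3.47, 4.90, 4.82 and 3.80 CPM in KO cells. KO untreated had the widest spread here (62.0 ± 38.3 CPM, SD, n = 4), with libraries 2 and 3 well above 1 and 4. Its mean was 8.0-fold that of WT untreated, and KO acetate stood 14.6-fold below it. The other groups kept an order without overlap, with WT untreated highest, then KO acetate, then WT acetate. The gaps were narrow, at 4.92 against 4.90 CPM and at 3.47 against 3.43 CPM. KO acetate lay wholly below WT untreated in 14.2% of all genes and wholly above WT acetate in 4.50%. Neither step was called (adjusted p = 0.14 and 0.495).

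Dnah7a encodes an axonemal dynein heavy chain, a motor of motile cilia. It was at 0.928, 2.64, 1.65 and 1.55 CPM in WT untreated and at 9.05, 12.6, 11.8 and 6.84 CPM in KO untreated. In WT acetate it was at 1.98, 2.39, 0.649 and 1.07 CPM, and in KO acetate at 3.57, 3.74, 2.23 and 1.77 CPM. KO untreated stood 5.92-fold above WT untreated and KO acetate 3.56-fold below KO untreated, the smallest gap with acetate of the 8 genes. These values are uncertain, since 54.2% of the 31-base words of its GENCODE M21 transcripts also occur in other genes, mainly the near-copies Dnah7b (43.8%) and Dnah7c (43.5%), which are not in the table analysed here. The counting could divide such reads between copies.

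The remaining 3 comparisons left out the KO untreated libraries, which entered the fit only through the shared estimate of the spread. The choice of genes also used the other groups, each as lower than KO untreated. The p-values of these comparisons are therefore not independent of the choice. The first comparison asks what acetate did in cells with PDH. Of the 8 genes, 4 fell in WT acetate against WT untreated and 0 rose, where 7.55% of all genes tested fell and 7.89% rose. Prlr fell by 2.12 on the log2 scale (SE 0.266, 4.33-fold, adjusted p = 4.02e-05), from 2.93 ± 0.912 to 0.664 ± 0.259 CPM (SD, n = 4). Kynu fell by 1.57 (SE 0.378, adjusted p = 0.00957), from 1.83 ± 0.848 to 0.621 ± 0.250 CPM. Tspoap1 fell by 1.48 (SE 0.427, adjusted p = 0.0342) and Dagla by 1.22 (SE 0.375, adjusted p = 0.0347). In these 4 genes no WT acetate library overlapped a WT untreated one, an arrangement with the acetate libraries lower in 10.7% of all genes.

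Acetate in WT cells gave no call for the other 4 genes. The log2 difference was −0.96 for Plcd1 (adjusted p = 0.0506), −0.97 for Aqp4 (adjusted p = 0.401), −0.15 for Dnah7a (adjusted p = 0.855) and 0.49 for Fscn1 (adjusted p = 0.211). The 95% interval of Plcd1, not adjusted for the number of genes, was −1.64 to −0.29 and left out 0. Those of the others were −2.45 to 0.51 for Aqp4, −0.98 to 0.68 for Dnah7a and −0.04 to 1.02 for Fscn1. All 4 WT acetate values of Fscn1 were above all 4 WT untreated ones, as in 10.6% of all genes. Of the 8 genes, 5 had an unadjusted p under 0.05, as did 4253 of the 14985 genes tested. The median log2 difference of the 8 genes was −1.09, beside 0.00275 over all genes.

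Prlr and Kynu stayed called under all 23 alternative settings, with adjusted p from 6.06e-12 to 0.0013 and from 0.000238 to 0.0462. Dagla was called under 16 of 23 (adjusted p 0.00607 to 0.112), and its call was lost without WT untreated 1 or 2, without WT acetate 1, 2 or 4, without the high-share libraries (0.0838) and with only these 2 groups (0.0552). Tspoap1 was called under 15 of 23 (0.00141 to 0.0838), and its call was lost without WT untreated 2, 3 or 4, without any 1 of the 4 WT acetate libraries, and with library totals in place of TMM scaling (0.0576). Plcd1 was called under 5 of 23 (0.0127 to 0.252). Those 5 included the fit without WT acetate 1 (−1.31, 0.0127), and leaving out WT untreated 1, its high library, brought the difference to −0.52.

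The next comparison set acetate-treated KO cells against untreated WT cells, to ask whether the genes returned to the WT level. The choice used the KO acetate level, as a fall from KO untreated, which favours genes low in KO acetate. The p-values below are thus not independent of the choice, and the shares over all genes were not limited to genes so chosen. Here 4 of the 8 genes were lower and 1 was higher, where 13.5% of all genes were lower and 12.9% higher. Prlr differed by −1.78 on the log2 scale (SE 0.262, adjusted p = 0.000108) and Kynu differed by −1.98 (SE 0.396, adjusted p = 0.00166). Plcd1 (−1.14, adjusted p = 0.0162) and Dagla (−1.24, adjusted p = 0.022) were lower as well. Fscn1 was higher in KO acetate by 0.89 (SE 0.248, 1.86-fold, adjusted p = 0.013), at 1.46 ± 0.339 against 0.786 ± 0.0326 CPM (SD, n = 4).

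Tspoap1 (−0.87, adjusted p = 0.14), Dnah7a (0.73, adjusted p = 0.168) and Aqp4 (0.45, adjusted p = 0.631) did not pass. Their 95% intervals ran from −1.76 to 0.02, from −0.07 to 1.54 and from −0.85 to 1.75, so for each gene the interval held 0 and also differences of over 1.5 log2 units. The 4 KO acetate values of Tspoap1 were below all 4 WT untreated ones, as in 14.2% of all genes. Without the high-share libraries Tspoap1 passed (−1.12, adjusted p = 0.0283), while Fscn1 (0.77, 0.0533) and Plcd1 (−0.66, 0.135) did not. Tspoap1 also passed with only these 2 groups in the fit (−0.88, 0.0067) and without KO untreated 2 (0.0428). Plcd1 did not pass without WT untreated 1 (0.0703) or KO acetate 1 (0.0541), nor Dagla without WT untreated 1 or 2 or KO acetate 1 or 3 (0.0501 to 0.0771).

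The last comparison set the genotypes against each other with acetate present. None of the 8 genes was called in KO acetate against WT acetate by edgeR. Among all genes 1.00% passed there, 0.487% as higher and 0.514% as lower. An unadjusted p under 0.05 was found for 1 of the 8 (Dnah7a) and for 2762 of the 14985 genes tested. DESeq2 and the other alternatives also called 0 of the 8. Replicate numbers were taken to pair the libraries in this comparison, from correlations of 0.14 to 0.378 between same-numbered libraries. KO acetate 3 and 4 did not correlate best with the WT acetate library of their own number. With a replicate block the genes called among all tested went from 150 to 408, with 0 of the 8 among them. That block covered all 16 libraries, and so also joined groups whose numbers were not taken as pairs. A block on these 2 groups alone was not fitted. The differences and intervals below are from the fit without a block. The log2 difference was 1.42 for Aqp4 (95% interval −0.01 to 2.86), 0.88 for Dnah7a (0.07 to 1.70, adjusted p = 0.23), 0.61 for Tspoap1 (−0.36 to 1.58), 0.40 for Fscn1 (−0.11 to 0.90) and 0.34 for Prlr (−0.26 to 0.93). It was −0.03 for Dagla (−0.88 to 0.83), −0.18 for Plcd1 (−0.88 to 0.53) and −0.41 for Kynu (−1.32 to 0.50). These intervals leave room for differences of over 2-fold in either or both directions for Aqp4, Dnah7a, Tspoap1 and Kynu. Only Tspoap1 had groups that did not overlap, with KO acetate above, as in 4.50% of all genes.

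**Figure D2:**
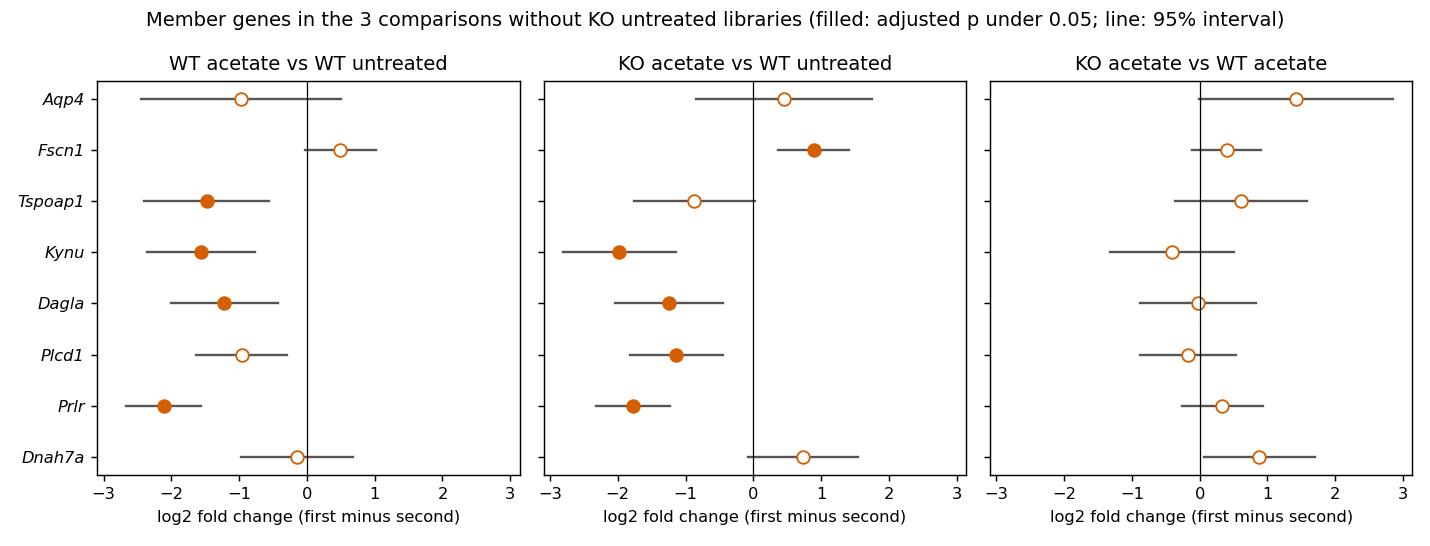
Log2 fold changes (horizontal axes, first group minus second) of the 8 genes (rows) in the 3 comparisons without KO untreated libraries, with 95% intervals as lines and filled circles for an adjusted p under 0.05. Prlr, Kynu and Dagla are filled on the left of 0 in both comparisons with WT untreated, as are Tspoap1 for WT acetate and Plcd1 for KO acetate. Fscn1 is filled on the right in KO acetate against WT untreated, and no circle is filled in KO acetate against WT acetate.

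The order of the groups therefore differed among the 8 genes below KO untreated. For Prlr, Kynu and Dagla, WT untreated came next, and both acetate groups were lower than it and not separated from each other by the test. Plcd1 had the same order, with the gap between WT untreated and WT acetate not called. For Fscn1 the order of means was KO acetate, WT acetate and WT untreated, of which KO acetate and WT untreated differed. Dnah7a had KO acetate next, and Aqp4 likewise, with no called difference among the 3 lower groups. For Tspoap1 only WT untreated and WT acetate differed by the test.

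How the genes varied together was described by Pearson correlations of log2 CPM, with no test. Over the 16 libraries, which share the group differences that chose the genes, r between the 28 pairs lay between 0.61 and 0.95 with a median of 0.86. After each group's mean was subtracted, r lay between −0.49 and 0.70 with a median of 0.05. Grouped after these values were seen, Aqp4, Fscn1, Tspoap1 and Dnah7a had r from 0.44 to 0.70 in their 6 pairs, and Kynu, Dagla, Plcd1 and Prlr from 0.10 to 0.53 in theirs. The 16 pairs across these sets ran from −0.49 to 0.15. In KO untreated, library 2 was highest and library 4 lowest for all 4 genes of the first set, whereas library 1 was highest for Kynu, Plcd1 and Prlr and library 4 for Dagla. KO untreated 1 and 2 are both among the high-share libraries, and their part in these correlations was not tested.

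**Figure D3:**
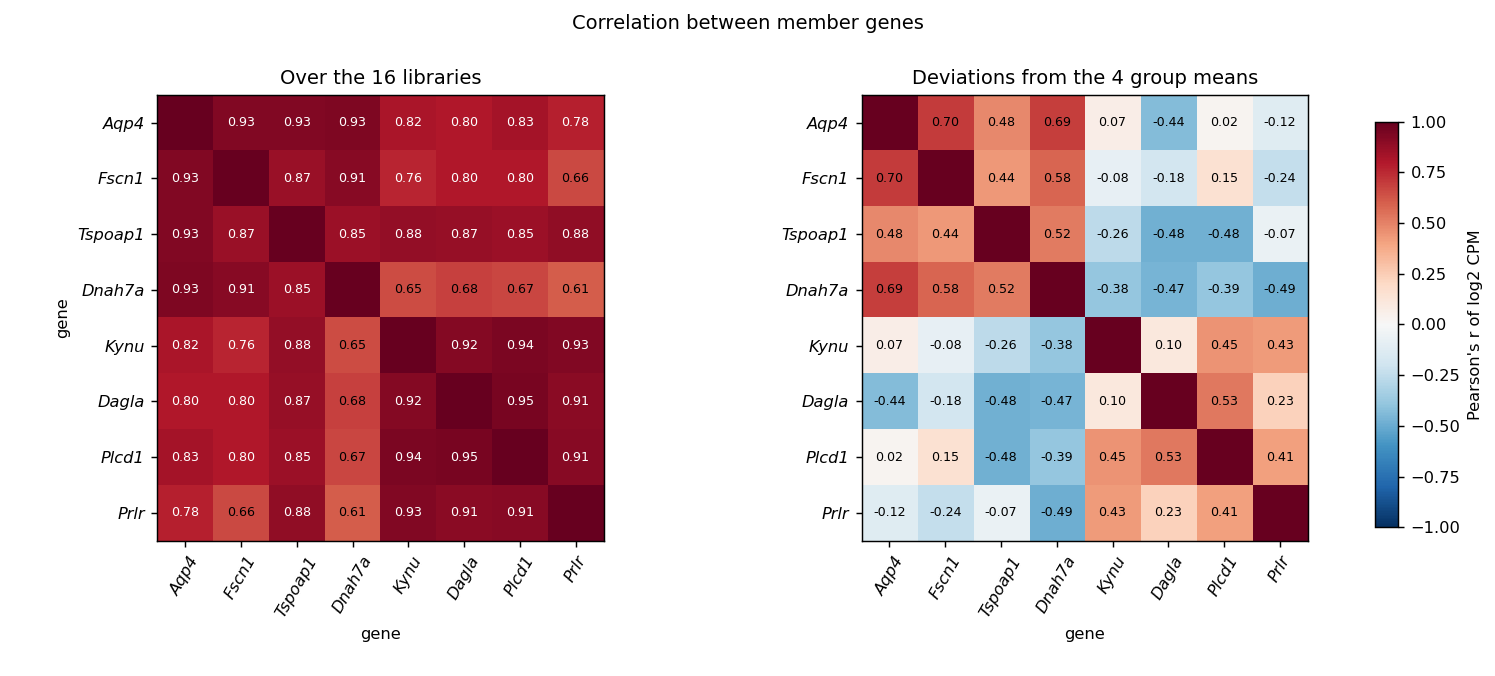
Pearson's r of log2 CPM between the 8 genes, shown by colour, over the 16 libraries and after each group's mean was subtracted. Over the 16 libraries every pair lies between 0.61 and 0.95, and after subtraction the 4 genes Aqp4, Fscn1, Tspoap1 and Dnah7a keep r of 0.44 to 0.70 while pairs across the sets lie between −0.49 and 0.15.

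The genes whose profiles were most like each of the 8 were listed by Pearson's r of log2 CPM over the 16 libraries among 10975 named genes. Like the 8, these genes follow the difference between the groups, and the libraries are shared. For Aqp4 they were Aldh3a2 (r = 0.98, 30.3 CPM in WT untreated, 45.2 in KO untreated and 31.8 in KO acetate), a fatty aldehyde dehydrogenase, with Fam129a and Poli. For Fscn1 they were Herpud1 (r = 0.98, 53.3, 103 and 62.7 CPM in the same groups), an endoplasmic reticulum stress protein, Gstt2 and the amino acid transporter Slc7a5. Tspoap1 was followed by Trat1 (r = 0.99, 74.2, 161 and 51.8 CPM), a T cell receptor-associated adaptor, Pan2 and Ngly1. Kynu and Plcd1 both had Pknox1 first (r = 0.97 and 0.96), then Gprin3 and Synrg for Kynu and Aspscr1 and Mphosph9 for Plcd1.

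Dagla had Msra (r = 0.98), a methionine sulfoxide reductase, Commd7 and Aoc1. For Prlr the closest were Hmgn2 (r = 0.97, 408 CPM in WT untreated, 709 in KO untreated and 216 in KO acetate), a nucleosome-binding protein, Tspan32 and Nlrc3. Dnah7a was closest to Slc7a3 (r = 0.97, 3.76, 29.5 and 10.2 CPM in the same groups), a cationic amino acid transporter, Herpud1 and Marc2. For the mean z score of the 8 genes the closest genes included Ngly1 (r = 0.99), Birc3, Nubp1, Atf5, Ing3, Prmt3 and Gbp8. Atf5, a stress-responsive transcription factor, stood at 14.9 CPM in WT untreated, 50.9 in KO untreated and 13.6 CPM in KO acetate.

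The relatives of each gene were counted in the same fit, leaving out the 8 genes themselves. These counts are for KO untreated against WT untreated and for KO acetate against KO untreated, which share the KO untreated libraries. Over all genes the share called was 18.0% higher and 18.6% lower in the former and 22.1% higher and 21.6% lower in the latter, with medians of 0.01 and −0.01. Under the 23 alternatives no called gene of these families changed sign in any comparison.

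Of 3 other aquaporins tested, 2 rose and 0 fell in KO untreated, and 0 rose and 2 fell with acetate (median log2 differences 0.56 and −0.43). Aqp9, which also carries glycerol, was at 2.32 ± 0.526 CPM in WT untreated, 9.84 ± 2.78 in KO untreated and 2.24 ± 0.786 CPM in KO acetate (SD, n = 4). Its log2 differences were 2.08 (SE 0.240, adjusted p = 3.48e-06) and −2.13 (SE 0.241, adjusted p = 1.23e-06). Aqp3 was at 20.8, 30.7 and 22.8 CPM in the same groups (adjusted p = 0.00633 and 0.0252). The fall of Aqp3 with acetate was not called without KO untreated 1, KO acetate 3 or the high-share libraries, nor with only the 2 groups compared (adjusted p 0.0622 to 0.104).

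Of 14 other genes of prolactin receptor and JAK2-STAT5 signalling, 4 rose and 4 fell in KO untreated, and 4 rose and 5 fell with acetate in KO cells (medians 0.02 and 0.06). Under the alternatives 3 to 4 rose and 2 to 4 fell in KO untreated, and 2 to 5 rose and 5 to 6 fell with acetate. Without the high-share libraries neither Ptpn11 nor Socs3 was called in either comparison, and Socs3 lost its calls under 10 and 13 of the 23 alternatives. Ptpn6, the phosphatase SHP-1, fell in KO untreated and rose with acetate, with log2 differences of −0.40 and 0.37 (adjusted p = 2.63e-06 and 2.93e-06).

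Among 10 other genes of 2-arachidonoylglycerol metabolism and related lipids, 3 rose and 3 fell in KO untreated, and 3 rose and 2 fell with acetate (medians 0.07 and −0.13). Daglb, the second diacylglycerol lipase, rose from 8.08 to 10.9 CPM in KO untreated (adjusted p = 0.00406), and Ptgs2, which encodes cyclooxygenase-2, from 1.25 to 3.24 CPM (adjusted p = 0.00289). Mgll, the lipase that breaks down 2-arachidonoylglycerol, was at 12.1 CPM in WT untreated, 19.3 in KO untreated and 6.91 CPM in KO acetate (adjusted p = 0.0118 and 1.55e-05). Pla2g4a, the cytosolic phospholipase A2, went the other way, at 1.3, 0.792 and 3.05 CPM (adjusted p = 0.0263 and 3.05e-06). The fall of Pla2g4a in KO untreated was not called without WT untreated 2 or 3, KO untreated 1 or 3, or the high-share libraries (adjusted p 0.0583 to 0.202). Without the high-share libraries 1 gene of this list fell in KO untreated instead of 3.

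Of 9 other phosphoinositide phospholipases C and related genes, 1 rose and 1 fell in KO untreated, and 4 rose and 2 fell with acetate (medians −0.13 and 0.25). Under the alternatives 1 or 2 rose and 1 or 2 fell in KO untreated. Plcd4, of the same delta class as Plcd1, was at 0.818, 1.75 and 0.806 CPM in WT untreated, KO untreated and KO acetate (adjusted p = 0.00267 and 0.00168). Plcg1, the isoform downstream of the T cell receptor, was at 152, 120 and 145 CPM (log2 differences −0.34 and 0.27). Plcg2 rose with acetate in KO cells by 0.97 and Plcl2 fell by 0.51.

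Of 7 other kynurenine pathway genes, 1 rose and 2 fell in KO untreated, and 2 rose and 2 fell with acetate (medians 0.32 and 0.37). The gene that rose was Kyat1 (adjusted p = 0.035), whose call was lost under 7 of the 23 alternatives, including those without WT untreated 1 or 2, KO untreated 2, 3 or 4, or the high-share libraries (adjusted p 0.0553 to 0.172). Kyat3, a kynurenine aminotransferase, was at 15.6 ± 0.895 CPM in WT untreated, 8.61 ± 0.833 in KO untreated and 18.2 ± 0.676 CPM in KO acetate (SD, n = 4), the reverse order to Kynu (adjusted p = 1.01e-06 and 2.6e-08). Got2, which also has kynurenine aminotransferase activity, moved like Kyat3, with log2 differences of −0.40 and 0.46.

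Of 16 other actin-bundling and protrusion genes, 1 rose and 7 fell in KO untreated, and 5 rose and 2 fell with acetate (medians −0.15 and 0.14). Without the high-share libraries 3 fell in KO untreated. Enah, which promotes filament elongation, was the gene that rose, at 5.22, 7.90 and 3.17 CPM in WT untreated, KO untreated and KO acetate (adjusted p = 0.00741 and 4.96e-06). The formin Diaph1 was at 201, 139 and 168 CPM and the crosslinker Actn1 at 123, 88.4 and 148 CPM, both lower in KO untreated than in either other group.

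Of 9 other genes linked to TSPO or RIM, 1 rose and 6 fell in KO untreated, and 6 rose and 2 fell with acetate (medians −0.21 and 0.27). Under the alternatives 4 to 7 fell in KO untreated, and 1 or 2 fell with acetate, where the fall of Dbi was not called under 15 of 23. Rims3 was the one that rose, at 13.4 ± 1.02 CPM in WT untreated, 28.7 ± 7.95 in KO untreated and 18.1 ± 2.51 CPM in KO acetate (SD, n = 4, adjusted p = 5.48e-05 and 0.00232). Vdac2, a mitochondrial outer membrane channel, had log2 differences of −0.36 and 0.32, and Prkar1a, a regulatory subunit of protein kinase A, of −0.20 and 0.27. Of 4 other axonemal dyneins tested, Dnah8 rose from 10.8 to 14.5 CPM in KO untreated (adjusted p = 0.0455) and fell to 5.79 CPM with acetate (adjusted p = 5.02e-06), and the other 3 did not pass (medians 0.16 and −0.43). The rise of Dnah8 was not called under 16 of the 23 alternatives. In KO acetate against WT acetate, 0 genes of any of the 8 families were called.

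**Figure D4:**
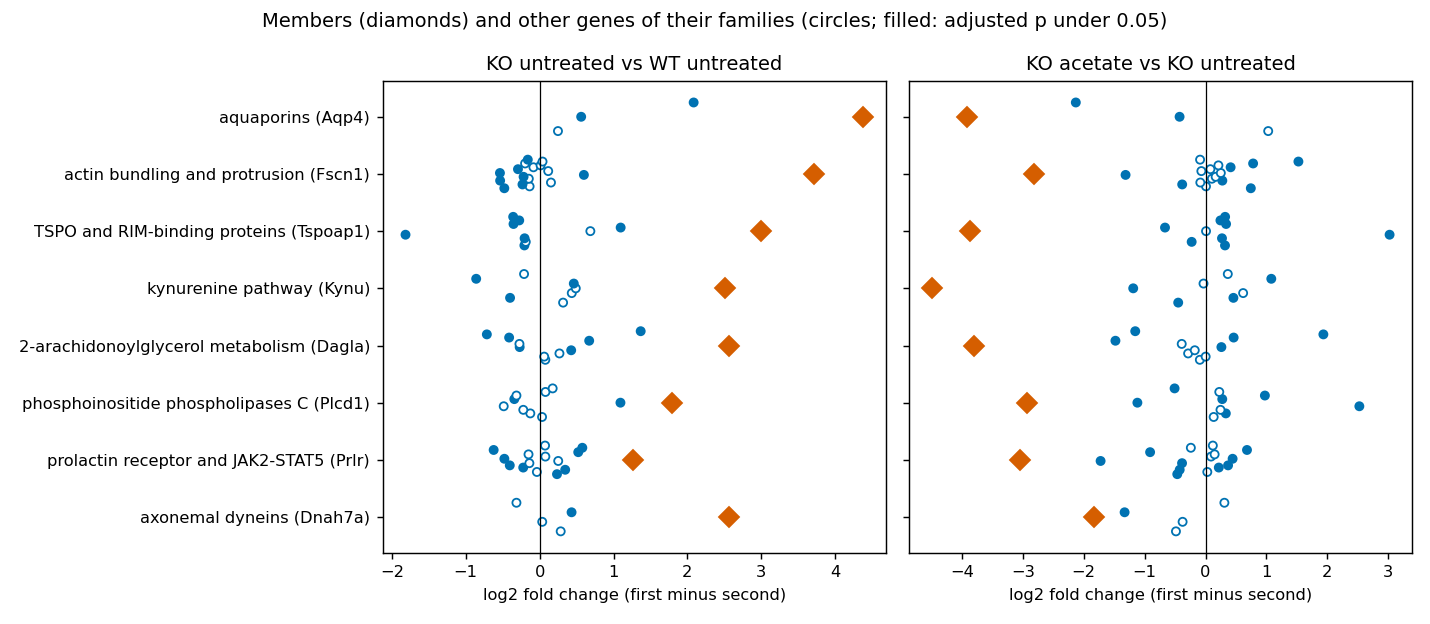
Log2 fold changes (horizontal axes) in the 2 comparisons that chose the 8 genes, with each of the 8 as a diamond, the other tested genes of its family as circles, filled for an adjusted p under 0.05, and families in rows. Aqp9 lies on the same side as Aqp4 in both panels, at 2.08 and −2.13, while in the actin row 7 filled circles lie left of 0 in KO untreated against WT untreated and 1 lies right.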

How the data were processed

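RNA was sequenced from 16 libraries (a stranded TruSeq mRNA kit, per the labels). The authors deposited expected counts per gene as whole numbers, used without further rounding; Salmon, DESeq2 and DESeq are named in the submitters' processing notes. The build, annotation and rounding step were not given in the sources used here. Every gene had at least 10 counts in at least 3 libraries. Of 15571 Ensembl identifiers, 15221 were given names from a reference table and 350 were not.

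Counts were tested with edgeR 4.0.16 in R 4.3.3 (filterByExpr on the groups, TMM scaling, robust quasi-likelihood F test) in 1 fit of all 16 libraries over 14985 genes. A gene was called, and said to rise or fall, at a Benjamini-Hochberg adjusted p under 0.05. SE is the log2 fold change divided by the square root of F, with 95% intervals from the t quantile of the fit. CPM uses TMM-scaled totals. Log2 CPM used a prior count of 2. The script was tested on simulated counts.

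Members and lists were chosen with earlier results of these data known. Named relatives were up to 2 called genes with the smallest adjusted p per family and rule comparison. For likeness, 3 genes per member and 8 for the mean z score were taken among genes with at least 1 CPM in KO untreated, leaving out predicted, unnamed, receptor-segment, Xist and Y-linked genes. Some genes this rule admits are not reported here. Pdha1, Il17a, Il23r, Cd74, Cd83, H2-Ab1, Ptpn11, Socs3, Kyat1, Dbi and the genes of the closing observations fall outside this rule and were chosen after their values were seen.

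Deviations from group means correlated between same-numbered libraries by 0.14 to 0.378 in KO acetate against WT acetate and by 0.111 to 0.302 in KO acetate against KO untreated, so numbers were taken to pair these; elsewhere not every pair passed 0.1. Replicates differed by more than sampling noise (chi-square per degree of freedom 6.07 to 207.7 in 24 pairs). DESeq2 1.42.0, other scalings, no filter, a replicate block, only the 2 groups compared, and fits without single or high-share libraries were the alternatives. Promoters are from RefSeq, and shared 31-base words from GENCODE M21 transcripts, which may not be the annotation used for counting.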

Additional observations from a re-analysis of the deposited data

Results flagged for a closer look

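Dixon's gap test over 32 groups of 4 libraries, of which chance marks about 1 in 20, marked 3 single libraries. Fscn1 in KO untreated had its highest library at 15 CPM (replicate 2, a high-share library), with the other 3 between 8.71 and 8.94 CPM. Fscn1 in WT acetate had its highest library at 1.63 CPM (replicate 1), with the others between 0.885 and 1.01 CPM. Plcd1 in WT untreated was highest at 5.64 CPM (replicate 1, a high-share library), with the others at 2.23 to 2.30 CPM.

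For Fscn1 the acetate libraries lay on opposite sides of the untreated ones in the 2 genotypes, but the WT difference was not called. All 4 WT acetate libraries were above all 4 WT untreated ones (log2 difference 0.49, adjusted p = 0.211), as in 10.6% of all genes. All 4 KO acetate libraries were below all 4 KO untreated ones (−2.82). The KO value was used to choose the gene, so no test of the difference between genotypes is given.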

How the results depend on the processing

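The directions and calls of the 8 genes were recomputed under 23 alternatives. Leaving out 1 library at a time gave 2 to 4 of the 8 called in WT acetate against WT untreated (2 without WT untreated 2, WT acetate 2 or WT acetate 4), 3 to 6 in KO acetate against WT untreated (3 without WT untreated 1 or KO acetate 1) and 0 in KO acetate against WT acetate. The medians of the 8 ran from 2.50 to 2.79 in KO untreated against WT untreated and from −3.45 to −3.22 in KO acetate against KO untreated.

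Genes called overall in KO acetate against WT acetate numbered 150. The count was 78 with library totals (28 higher and 50 lower, against 73 and 77), 408 with a replicate block, 535 without the high-share libraries, 16 with only these 2 groups, 831 with DESeq2, and 21 (without WT acetate 3) to 661 (without KO acetate 2) leaving out 1 library. The cause was not tested. With library totals the split was 1196 higher and 558 lower in WT acetate against WT untreated (against 1183 and 1132), and 1911 and 1254 in KO acetate against WT untreated (against 1935 and 2019).

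Changes of sign were limited to small values that were not called. Dagla in KO acetate against WT acetate became 0.0055 with the replicate block and 0.02, 0.43, 0.18 and 0.10 without WT acetate 1, WT acetate 3, KO acetate 1 and KO acetate 3 (range −0.30 to 0.43). Dnah7a in WT acetate against WT untreated became 0.15 without WT untreated 2 and 0.11 without WT acetate 3 (range −0.46 to 0.15), and Plcd1 in KO acetate against WT acetate became 0.17 without WT acetate 1 (range −0.32 to 0.17). In WT acetate against WT untreated, numbers were not taken to pair the libraries (r from −0.16 to 0.342 for the same number). There the block gave Plcd1 −0.93 (adjusted p = 0.0154) and DESeq2 gave −0.97 (0.0157), both past the threshold. The block changed no other call of the 8. Same-numbered libraries correlated by −0.298 to 0.401 over all comparisons, and 8 of 20 correlated best with their own number. Aqp4 was filtered out with only the 2 WT groups and has no value there. Counts were low for Aqp4 outside KO untreated, so small differences were not detectable at this depth.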

Other observations

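Other genes had a similar gap between KO untreated and the next highest group, and were picked by the same values, so they are given with no test. The named genes ranked closest to the 8 included Cox6a2, a muscle subunit of cytochrome c oxidase (3rd, 1.37 CPM in KO untreated), Cd40, a receptor known from antigen-presenting cells (4th, 3.49 CPM), the receptor tyrosine kinase Ret (5th, 1.17 CPM), Stc2, a secreted glycoprotein (12th, 8.56 CPM), Alox15, a lipoxygenase (17th, 2.28 CPM), Spib, an Ets-family transcription factor (18th, 2.64 CPM), and the cytokine Il9 (20th, 29.3 CPM). Their gaps on the log2 scale ran from 3.13 for Cox6a2 to 2.21 for Il9, beside 3.83 for Aqp4. Aoc1, 11th in that order, was also among the genes most like Dagla.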
